A study of Homo sapiens with 4 samples.

Results

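The miRNA hairpins miR-1976, miR-4290, miR-3662, miR-3622a, miR-4667, miR-6511a and miR-6716 were examined in exosomal RNA, that is RNA carried by small membrane vesicles shed by cells. Their 11 entries, of 1308 on the array, were taken by name, any arm included. The hairpins were selected on their measured change, because an entry of each stood among the 12 largest rises after camptothecin, so those rises are given here as a description and support nothing. All entries came from 4 arrays with 1 dye, Cy5. The vesicles were those of Hep3B, a human hepatoma line, collected from exosome-depleted medium conditioned for 2 days. In the camptothecin group (2 arrays) the cells also received 10 µM camptothecin, which traps topoisomerase I on DNA and leads to strand breaks. The untreated group (2 arrays) received nothing per the labels, whereas the headers of the authors' deposited ratios name DMSO as comparator, and the files do not settle which applies. Whether replicate arrays stem from independent cultures is not stated, p-values therefore measure only the spread between these arrays, which may be technical, and both groups come from a single cell line.

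A miRNA hairpin is cut from a longer transcript, and then trimmed to a short duplex whose strands are called the 5p and the 3p arm. The arm that is loaded into an Argonaute protein guides it to messenger RNAs, mainly through the seed, the bases near its 5′ end, while the other arm is mostly degraded, so the arms of a hairpin can differ in abundance. Vesicles carry a part of a cell's small RNA into the medium. The hairpins described here were annotated late, after deep sequencing had become common, and are less studied than the first miRNAs. For miR-3662 a role as a suppressor of growth in hepatocellular carcinoma, acting on the hypoxia factor HIF-1α, has been reported, and miR-1976, miR-4290 and the arms of miR-3622a have each been described as suppressors in other tumours.

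The sequences of the raised arms and of their opposite arms are shown because their make-up differs. They are RefSeq's on GRCh38.p14, where mature sequences were at hand for 5 of the 7 raised arms, and each is written 5′ to 3′ with the seed (bases 2 to 8) in capitals.
miR-4290: uGCCCUCCuuucuucccuc
miR-4667-3p: uCCCUCCUucuguccccacag
miR-6511a-3p: cCUCACCAucccuucugccugc
miR-6716-3p: uCCGAACUcuccauuccucugc
miR-3662: gAAAAUGAugaguagugacugaug
miR-4667-5p: aCUGGGGAgcagaaggagaacc
miR-6511a-5p: cAGGCAGAaguggggcugacagg
miR-6716-5p: uGGGAAUGgggguaagggcc

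For miR-1976 the hairpin is shown, with the capitals marking the stretch of 10 bases that it shares with miR-4290.
miR-1976 hairpin: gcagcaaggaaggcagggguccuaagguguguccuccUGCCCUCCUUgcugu
This stretch forms the first 10 bases of miR-4290. Its last 8 bases, CCCUCCUU, also stand in miR-4667-3p from base 2 on. Among the 1105 array entries whose names matched a RefSeq mature sequence, 2 held those 8 bases on the RNA strand (0.181%), miR-4290 and miR-4667-3p. Probe sequences were not analysed here.

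By the same annotation the miR-1976 hairpin (chr1:26554542-26554593, plus strand) lies within RPS6KA1, the gene of a ribosomal S6 kinase. The miR-4667 hairpin (chr9:35608094-35608159, plus) lies within TESK1, a kinase gene, and the miR-6716 hairpin (chr11:118644000-118644079, plus) within PHLDB1. The miR-3662 hairpin (chr6:134979338-134979432, minus) lies within HBS1L, the gene of a factor that rescues stalled ribosomes, and the miR-4290 hairpin (chr9:90023441-90023535, minus) within MIR4290HG, a long non-coding RNA. The miR-6511a-5p sequence is annotated at 4 places on chromosome 16, the first at chr16:14925941-14925963 (plus), and each of these hairpins lies within a pseudogene of PKD1. An array entry for miR-6511a therefore cannot be tied to 1 locus.

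The array intensities, in arbitrary units on a linear scale, ran from 109 to 8435 on the camptothecin arrays and from 91.4 to 12998 on the untreated ones, with a common 75th percentile of 250.15. Sorted by size, the 1308 values of replicate arrays were identical, as after quantile normalization within a group. That step removes part of the replicate spread and makes p-values smaller than they should be. The median log2 change of all entries was 0.11, and changes are also given relative to it. This median varied with the scaling, to 0.0067 after median centring and -0.0093 with all 4 arrays quantile normalized together. Its cause was not tested. Of the hepatocyte miRNAs, miR-122-5p, miR-192-5p and miR-194-5p lay below the median level of all entries, with miR-122-5p between 103 and 106 on the untreated arrays, near the lowest value of those arrays. All 3 were called higher as deposited, by 0.39, 0.23 and 0.27 on the log2 scale (limma adjusted p = 0.0062, 0.014 and 0.030), and none with all 4 arrays quantile normalized together (0.102, 0.237 and 0.264) or with any array left out. Of the blood-cell miRNAs, miR-150-5p was called higher as deposited (log2 change 0.32; limma adjusted p = 0.045), a call lost under that quantile normalization (0.228), median centring (0.165), normexp background correction (0.158) and with any array left out. miR-223-3p (0.11) and miR-486-5p (-0.015) were not called as deposited. Other settings kept some of these calls. miR-122-5p stayed called after median centring and normexp (limma adjusted p = 0.014 and 0.028), where miR-192-5p and miR-194-5p did not. With the 75th percentile taken over the brighter entries, all 3 hepatocyte miRNAs, miR-150-5p and miR-223-3p were called, beside 975 calls among all entries. With the replicate number as a block, those 3 and miR-150-5p were called, beside 550. The part of these miRNAs in the results was not tested. No entry carries a background reading here, so the height of a dim entry over background is unknown. The number of arrays limits the precision, and an exact permutation test of 2 against 2 cannot go below p = 0.333.

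Among the raised arms, miR-1976 had the highest log2 change as deposited. It read 1569 and 1486 on the camptothecin arrays and 833 and 811 on the untreated arrays. The groups did not overlap, and arrays of a group lay close together. The change was 1.86-fold (log2 0.89 ± 0.049 SE, n = 2 arrays per group), from 0.84 to 0.95 over the 4 pairs of a treated and an untreated array, and it stood 0.78 above the median of all entries on the log2 scale.

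miR-4290 read 668 and 737 after camptothecin and 403 and 407 without. The untreated arrays were nearly equal, and the treated ones lay clearly above both. Its change was 1.73-fold (log2 0.79 ± 0.064 SE, n = 2), and the 4 array pairs gave 0.72 and 0.73 with camptothecin replicate 1 and 0.87 and 0.86 with camptothecin replicate 2.

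miR-6511a-3p read 1215 and 1157 against 724 and 675, a 1.70-fold change (log2 0.76 ± 0.057 SE, n = 2; pairs from 0.68 to 0.85). miR-3622a-3p read 1513 and 1262 against 857 and 807, a 1.66-fold change (0.73 ± 0.092 SE). It had the widest spread of the raised arms, both between the treated arrays (SD 177 around a mean of 1387) and in the standard error, and its array pairs ran from 0.56 to 0.91, the lower values with camptothecin replicate 2. miR-6716-3p was dimmer, at 267 and 260 against 156 and 167 (log2 change 0.71 ± 0.052 SE).

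miR-4667-3p read 489 and 445 against 328 and 288 (log2 change 0.60 ± 0.084 SE), with array pairs from 0.44 to 0.77. miR-3662 read 326 and 331 against 217 and 217 (0.60 ± 0.045 SE), with pairs between 0.58 and 0.61, the narrowest range among the raised arms. The pair values of miR-1976 overlapped with those of miR-4290, miR-6511a-3p and miR-3622a-3p, and those of the last 3 and miR-6716-3p with each other, so the order by size is not resolved. Without camptothecin replicate 1 the log2 change was 0.86 for miR-4290 and 0.85 for miR-1976. At the edge of the choice, miR-3662 ranked 12 with a log2 change of 0.60, while miR-4646-3p, at rank 13 and also at 0.60, and miR-1260b, at 0.59, were left outside.

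**Figure D1:**
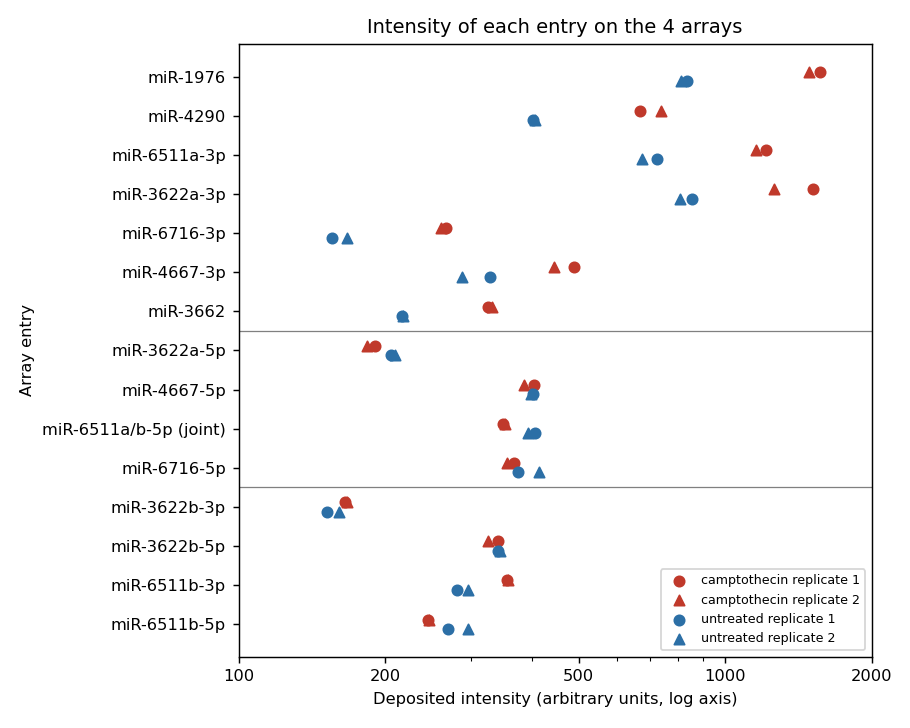
Deposited intensity (arbitrary units, log axis) of each entry on the 4 arrays. Circles mark replicate 1 and triangles replicate 2, with red for camptothecin and blue for untreated. The blocks from top to bottom are raised arms, opposite arms and the hairpins miR-3622b and miR-6511b, grouped as near-identical. The red points of all 7 raised arms lie to the right of the blue points, at higher intensity. In the middle block they lie to the left, except for miR-4667-5p, where both overlap.

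All 7 raised arms were called higher by limma (Benjamini-Hochberg adjusted p under 0.05 over 1308 entries), beside 35.1% of all entries called higher and 11.2% called lower. The choice used this contrast, so nothing is read from that count. The same holds for their separation, since both treated arrays lay above both untreated arrays for all 7 raised arms and for 59.4% of all entries. Their median log2 change was 0.73, with a range of 0.60 to 0.89. With all 4 arrays quantile normalized together, where 6.88% of all entries were called higher and 6.04% lower, the 7 ran from 0.60 for miR-3662 to 1.08 for miR-1976. Limma called 4 of the 7 when camptothecin replicate 1 or camptothecin replicate 2 was left out and 0 when untreated replicate 1 or 2 was, with 7 at an unadjusted p under 0.05 each time. Of all entries, limma then called 5.43%, 3.36%, 0.0765% and 0.0765% in either direction (71, 44, 1 and 1 of 1308), and 577, 572, 479 and 463 had an unadjusted p under 0.05. A count of 0 without an untreated array therefore says little about the raised arms.

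The opposite arm was measured for 4 of the 7 hairpins, and no entry for an opposite arm was found for miR-1976, miR-4290 and miR-3662. The raised arm of a hairpin is its entry with the larger log2 change, so its opposite arm is by definition the one with the smaller change. The opposite arms entered through their hairpins' names, and they share arrays and normalization with the raised arms. Their values are therefore not independent of the choice. None of the 4 rose as deposited, 2 fell past the test (of 11.2% among all entries) and 3 had both treated arrays below both untreated arrays (of 19.3% among all entries). Their median log2 change was -0.13, against 0.11 for all entries. All 4 stood at or above the median level of all entries. The 654 entries at that level had a median of 0.0043, and limma called 142 of them lower when they were tested alone. That is the closer background for these 4 arms.

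miR-3622a-5p read 191 and 184 after camptothecin and 206 and 209 without, so that the groups did not overlap. It fell by 0.15 on the log2 scale (SE 0.044, n = 2; limma adjusted p = 0.040), in 4 of 4 array pairs. The entry for miR-6511a-5p also carries the name of miR-6511b-5p, the arm of a near copy. It read 349 and 353 against 407 and 393, and fell by 0.19 (SE 0.049, n = 2; limma adjusted p = 0.028), in 4 of 4 pairs.

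miR-6716-5p read 369 and 357 against 376 and 414, with no overlap between the groups but a wide gap between the untreated arrays. Its log2 change was -0.12 ± 0.064 SE (limma adjusted p = 0.167). miR-4667-5p read 405 and 387 against 403 and 399, so its groups overlapped (-0.020 ± 0.051 SE; limma adjusted p = 0.763). The limma adjusted p of miR-6511a-5p became 0.232 with all 4 arrays quantile normalized together and 0.109 after normexp background correction. That of miR-3622a-5p was 0.036 and 0.053 in those settings, with log2 changes of -0.22 and -0.28. With the 75th percentile taken over the brighter entries alone, which moved the median of all entries to 0.24, the changes were -0.024 for miR-3622a-5p (limma adjusted p = 0.635) and -0.063 for miR-6511a-5p (0.274), and both calls were lost. With any of the 4 arrays left out (camptothecin replicate 1 or 2, untreated replicate 1 or 2), 0 of the 4 opposite arms were called by limma, and 2, 2, 0 and 1 in that order had an unadjusted p under 0.05, beside the 71, 44, 1 and 1 calls and the 577, 572, 479 and 463 unadjusted ones among all 1308 entries.

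**Figure D2:**
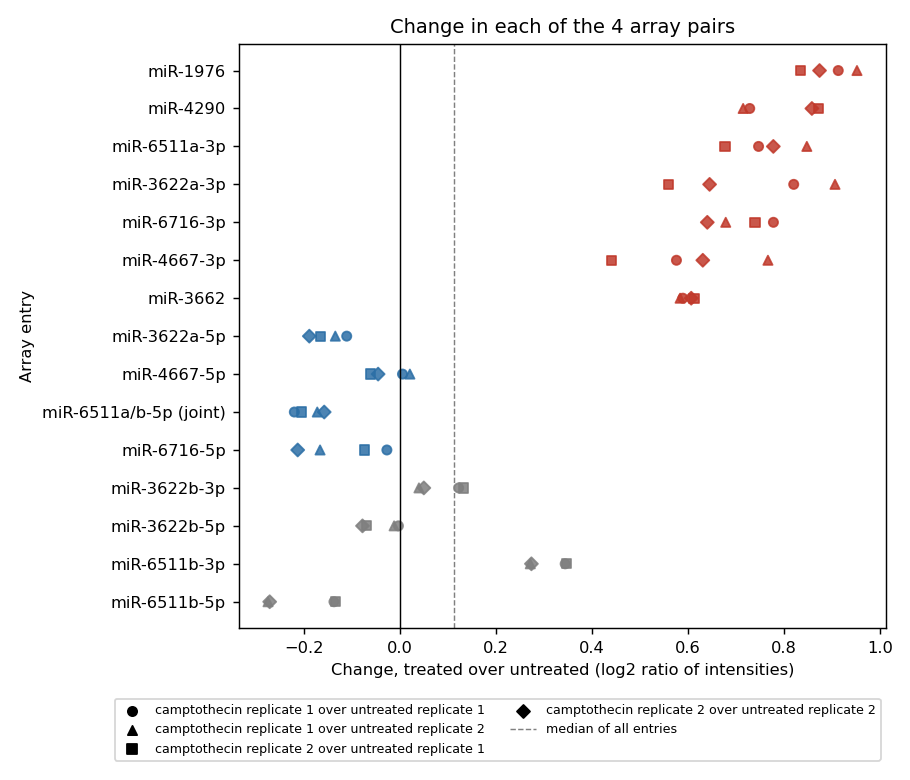
Log2 ratio of treated over untreated intensity for each entry in the 4 array pairs (marker shapes), red for raised arms, blue for opposite arms and grey for near-identical hairpins; the solid line is no change and the dashed line the median of all entries, 0.11. The raised arms lie between 0.44 and 0.95 and the opposite arms between -0.22 and 0.02.

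Within each of the 4 hairpins, the change of the 3p arm lay above that of the 5p arm. The difference in log2 change was 0.95 for miR-6511a (0.88 to 1.02 over the array pairs), 0.88 for miR-3622a (0.72 to 1.04), 0.83 for miR-6716 (0.80 to 0.85) and 0.62 for miR-4667 (0.50 to 0.75). In every array pair the arms were thus at least 0.50 apart. A scaling that shifts all entries of an array alike leaves these differences as they are, and under quantile normalization of all 4 arrays they were 0.99, 1.13, 0.69 and 0.60 in the same order. The 3p arm of each was chosen for its rise, so the difference is a description.

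A 3p arm with the larger change was common on these arrays. With miR-6511b and miR-3622b included, 228 other hairpins had both arms measured under separate names. Among them the 3p change was the larger in 137 (60.1%), with a median difference of 0.077. With both arms at or above the median level it was the larger in 61 of 81 such hairpins (75.3%), with a median difference of 0.25. Ranked with the others, miR-3622a stood at place 5, miR-6716 at 8 and miR-4667 at 20 of 231 by this difference, and places 1 to 3 went to miR-4728, miR-197 and miR-877. miR-6511a was left out of this ranking because its 5p entry is shared.

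**Figure D3:**
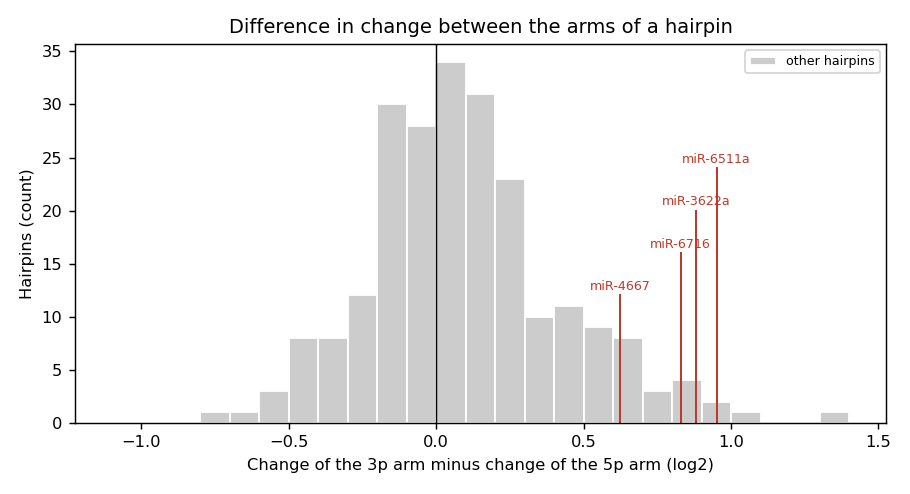
Change of the 3p arm minus change of the 5p arm (log2) for 228 other hairpins with both arms measured, as a histogram (count of hairpins), with the 4 described hairpins as red lines. The red lines lie from 0.62 to 0.95, toward the right end of the histogram, whose median is 0.077.

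The hairpins miR-6511b and miR-3622b, grouped here as near-identical, gave a further view. For miR-3622a and miR-3622b no mature sequence was at hand, so their likeness was not examined. miR-6511b-3p is 23 bases long against 22 for miR-6511a-3p, shares its seed, and over the 22 aligned bases is identical at 21. The single substitution is U9C, counted from 1 at the 5′ end with the base of miR-6511a-3p first. No other array entry with a matched sequence shared the seed of any of the 5 raised arms.
miR-6511a-3p: cCUCACCAucccuucugccugc
miR-6511b-3p: cCUCACCAccccuucugccugca

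miR-6511b-3p read 357 and 358 after camptothecin against 281 and 296 without, with no overlap. It rose by 0.31 on the log2 scale (SE 0.051, n = 2; limma adjusted p = 0.011), in 4 of 4 array pairs, beside 0.76 for miR-6511a-3p. The files do not show whether the probes tell these RNAs apart, so both values are uncertain. The log2 change of miR-6511b-3p was 0.35 with all 4 arrays quantile normalized together (limma adjusted p = 0.014).

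miR-6511b-5p, measured apart from the shared entry, read 245 and 246 against 270 and 297 and fell by 0.20 (SE 0.060, n = 2; limma adjusted p = 0.040). With quantile normalization of all 4 arrays its adjusted p was 0.084 in limma, at a log2 change of -0.21. miR-3622b-3p read 166 and 167 against 152 and 161, a log2 change of 0.086 that did not pass (limma adjusted p = 0.167), beside 0.73 for miR-3622a-3p. miR-3622b-5p read 341 and 326 against 342 and 344 (-0.040; limma adjusted p = 0.532). Of the 4 entries of these near-identical hairpins, 1 was thus called higher (of 35.1% among all entries) and 1 lower (of 11.2%). With an array left out, a group holds a single array, so only effect sizes are given here. Without camptothecin replicate 1 or 2, then untreated replicate 1 or 2, miR-6511b-3p changed by 0.31, 0.31, 0.27 and 0.35. In the same order miR-6511b-5p changed by -0.20, -0.21, -0.27 and -0.14 on the log2 scale. The values were 0.091, 0.081, 0.045 and 0.13 for miR-3622b-3p, and -0.073, -0.0073, -0.045 and -0.036 for miR-3622b-5p.

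The raised and the opposite arms differed in base composition. The choice did not use composition itself, but it used the change, which went with guanine share among other entries (below). The arms of a hairpin also form a duplex, so their compositions are linked. The contrast is therefore a description. In miR-4290, miR-6511a-3p, miR-6716-3p and miR-4667-3p guanine made up 5.26%, 9.09%, 9.09% and 9.52% of bases, and cytosine with uracil 94.7%, 81.8%, 77.3% and 81.0%. The medians over the 1105 matched entries were 29.2% for guanine and 45.5% for cytosine with uracil. These 4 raised arms are therefore poor in guanine and made mostly of pyrimidines. miR-4290 had the highest pyrimidine share of all matched entries.

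miR-3662 did not share this make-up, with 33.3% guanine, 37.5% adenine and 29.2% cytosine with uracil. The opposite arms lay on the other side. Guanine made up 40.9% of miR-4667-5p, 47.8% of miR-6511a-5p and 55.0% of miR-6716-5p, all above the median of all matched entries. miR-6511b-3p (8.70% guanine), which rose, and miR-6511b-5p (41.7%), which fell, had the composition of their counterparts.

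A larger change went with a lower guanine share among the brighter entries. Over 533 matched entries whose level was at least the median, Spearman's rho between log2 change and guanine share was -0.57 and Pearson's r -0.58. The hairpins of the raised arms were left out of these entries, while miR-6511b-3p and miR-6511b-5p were kept. In the same entries rho was 0.36 for uracil, 0.25 for cytosine and 0.13 for adenine. Over all 1105 matched entries rho for guanine was -0.49. These points share the arrays, the normalization and the group means, and entries are not replicates, so the values only describe the set. In the 533 entries rho for guanine ran from -0.58 to -0.51 over the 4 array pairs, and with all 4 arrays quantile normalized together it was -0.53. The cause was not tested.

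**Figure D4:**
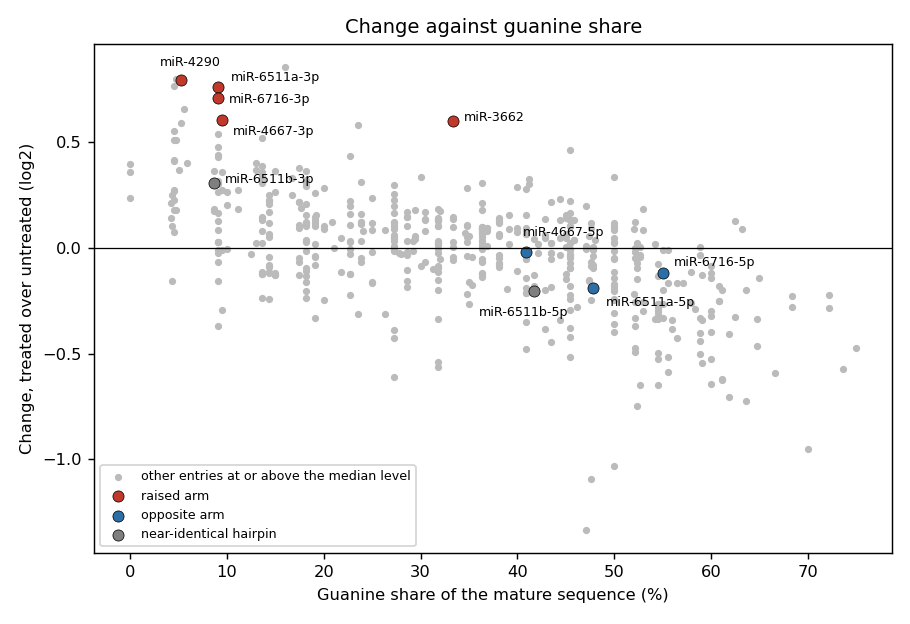
Log2 change after camptothecin against the guanine share (%) of the mature sequence. Grey points are other matched entries of at least median level. Coloured points are the raised arms (red), opposite arms (blue) and near-identical hairpins (dark grey) that have a sequence. The 533 entries of the text also count miR-6511b-3p and miR-6511b-5p, shown here as near-identical hairpins. Raised arms with under 10% guanine sit at the top left, miR-3662 stands alone at 33.3%, and the opposite arms sit at 40.9% to 55.0%.

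For miR-4290, miR-6511a-3p and miR-1976, the 3 entries whose log2 values, centred per entry, lay nearest over the 4 arrays were taken. For miR-4290 the nearest was miR-877-3p, at a Euclidean distance of 0.030, followed by miR-197-3p (0.11) and miR-483-3p (0.11). For miR-6511a-3p it was miR-197-3p (0.087), then miR-877-3p (0.15) and miR-4728-3p (0.18). For miR-1976 it was miR-197-3p (0.14), then miR-4728-3p (0.16) and miR-877-3p (0.16). With 4 arrays this likeness mostly reflects a like difference between the groups.

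**Figure D5:**
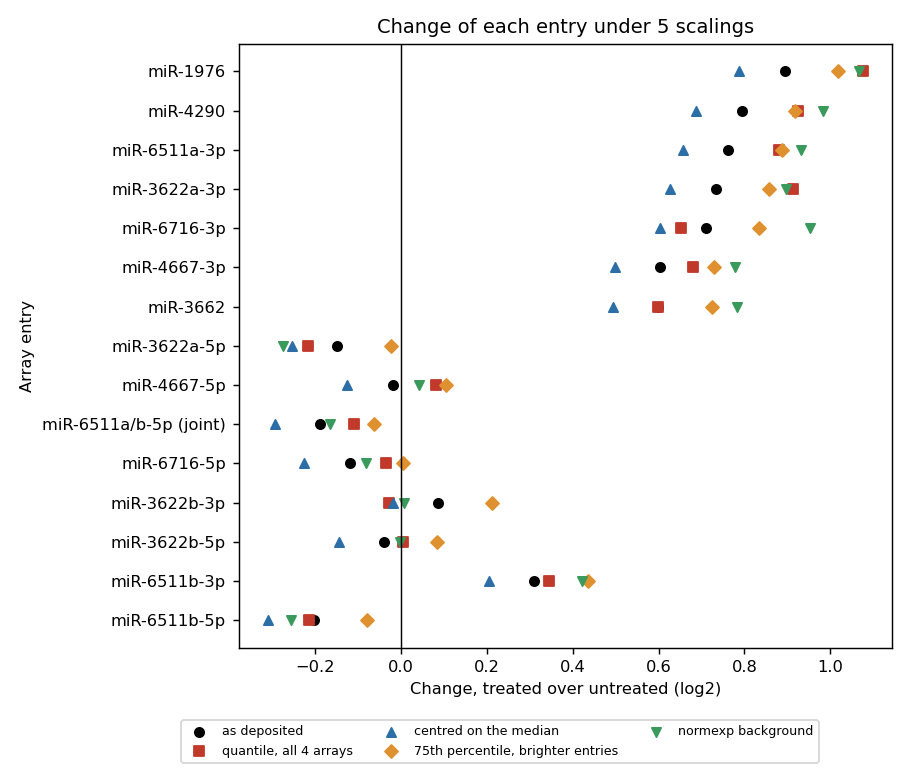
Log2 change of each entry (treated over untreated) for the values as deposited and under 4 other scalings. The raised arms stay above 0.49 in all 5, whereas the opposite arms lie between -0.29 and 0.11, with miR-4667-5p and miR-6716-5p on either side of 0.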

How the data were processed

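Per the labels, reverse-transcribed and amplified small RNA was labelled with Cy5. The authors deposited 1 intensity per entry and array; the sources used here do not name the scanner or the normalization. Their log2 ratios are, per the file headers, each treated array over each comparator. They equal the differences between the log2 values of the deposited intensities within 5e-10 and served for this check only. In that table, 4 value columns were not used. The members and lists were chosen with earlier results of these data known. Intensities were taken as log2 with no pseudocount and compared in R 4.3.3 with limma 3.58.1 (lmFit, then eBayes with an intensity trend) over all 1308 entries, two-sided, with Benjamini-Hochberg adjustment and a threshold of 0.05. The code was checked on simulated data. Names come from the authors' table, where 12 entries carry several names, and 1105 names matched RefSeq (GRCh38.p14). Groups and replicate numbers follow the labels. Named entries were all arms of the 7 hairpins, of miR-6511b and of miR-3622b, entries sharing a raised arm's seed, the 3 nearest patterns for miR-1976, miR-4290 and miR-6511a, the 3 entries richest in cytosine and in guanine at or above the median level, and the markers miR-122-5p, miR-192-5p, miR-194-5p, miR-150-5p, miR-223-3p and miR-486-5p. miR-4646-3p, miR-1260b and the hairpins leading the arm ranking were named after their values were seen. Same-numbered arrays did not deviate together (correlation -0.072), and the numbers were not taken as pairs.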

Additional observations from a re-analysis of the deposited data

How the results depend on the processing

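Among the 8 opposite arms and entries of near-identical hairpins, 4 were called as deposited (1 higher and 3 lower, of 606 calls among all entries), 2 under quantile normalization of all arrays (1 higher and 1 lower, of 169), 2 with the 75th percentile taken over the brighter entries (both higher, of 975), 1 after normexp correction (of 191), 1 with the replicate number as a block (of 550) and 0 with any array left out (of 71, 44, 1 and 1). With that percentile all 3 lower calls were lost and miR-3622b-3p was newly called higher (log2 change 0.21; limma adjusted p = 0.0089). With the block the limma adjusted p was 0.072 for miR-3622a-5p, 0.063 for miR-6511a-5p and 0.053 for miR-6511b-5p. With an array left out, 1 group holds a single array, which is assumed to vary like the arrays of the other group. Of all 11 entries of the hairpins, 9 were called as deposited and 8 under quantile normalization of all arrays. The other 75th percentile, normexp correction and the replicate block each gave 7, and fewer were called with an array left out. Of these calls, 7 in each setting with 4 arrays were the raised arms, picked on this contrast, so the counts support nothing about them. The cause of the differences between settings was not tested. The raised arms kept their sign and their call in all settings that used 4 arrays, which their choice favours. Small changes turned sign: miR-4667-5p to 0.082 under quantile normalization, 0.11 with the other 75th percentile and 0.043 after normexp (-0.053 to 0.013 with an array left out); miR-6716-5p to 0.0055 with the other 75th percentile; miR-3622b-3p to -0.028 under quantile normalization and -0.019 after median centring; and miR-3622b-5p to 0.0056 and 0.085 under quantile normalization and the other 75th percentile. Pseudocounts of 16 and 64, eBayes without trend or with robust variance, and the filter on dim entries changed no call among these entries. The filter left out miR-3622b-3p.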

Other observations

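Entries at or above the median level, miR-6511b-3p and miR-6511b-5p included but the hairpins of the raised arms left out, were set apart by guanine share. In the 139 with under 20% guanine the median log2 change was 0.16, with 67 called higher and 7 lower (limma adjusted p under 0.05). In the 117 with 50% or more it was -0.25, with 1 called higher and 69 lower. With all 4 arrays quantile normalized together these medians were 0.14 and -0.14. The calls by guanine share rest on the deposited values, where limma called 459 of all 1308 entries higher and 147 lower. Tested alone, the 654 entries at or above the median level gave 125 higher and 142 lower calls. Under that quantile normalization only 90 of the 1308 were called higher and 79 lower, and calls by guanine share were not counted. The entries richest in guanine were miR-6089 (75%), with a log2 change of -0.47, miR-6090 (73.7%), with -0.57, and miR-4281 (72.2%), with -0.22. The entries richest in cytosine were miR-3162-3p (66.7%), with 0.40, miR-1228-3p (65.0%), with 0.27, and miR-4749-3p (65.0%), with -0.13, so a high cytosine share did not always go with a rise. Among other hairpins, miR-6511b included, 62 had both arms at or above the median level and both sequences matched. Between their arms, Spearman's rho of the difference in change with the difference in guanine share was -0.75 and Pearson's r -0.76. These values describe entries that share arrays and normalization.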
